A study of Homo sapiens with 12 samples.

Results

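The collagen genes of the array were taken as every probe whose deposited target name was COL, a number, A and a number, such as COL1A1. This gave 70 of 47227 probes, for 43 genes. The genes fall into 11 fibrillar collagens (18 probes), 6 basement membrane collagens of type IV (10 probes) and 26 others (42 probes), which include beaded-filament, fibril-associated, transmembrane, multiplexin, short-chain and anchoring-fibril chains. Of the 43 genes, 31 were tested, because at least 1 of their probes was detected (detection p under 0.01) on each array of some group: 8 fibrillar, 4 basement membrane and 19 other genes.

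RNA came from H9, a human embryonic stem cell line. LHX2, the factor under study, is a transcription factor with LIM domains and a homeodomain that acts in the developing forebrain and eye. In one arm, H9 cells labelled as LHX2 cells were left without doxycycline (dox-minus) or received it for 3 days (dox-plus), and were sampled at day 4 and day 16, which the series text places 1 and 13 days after the drug. In the other arm, H9 cells with a short hairpin against LHX2 (shLHX2) or against luciferase (shLuc) were sampled when neural induction had run for 12 days. Every group, of 6 in all, had 2 arrays, described as biological duplicates, and whether they came from separate cultures is not stated, so the spread between them may be partly technical. The series text names GFP as a control for the overexpression arm; GFP samples were not analysed here, so doxycycline itself and LHX2 cannot be told apart in the dox comparisons. These are bulk cultures, in which fewer cells of a type and less RNA per cell cannot be told apart.

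Collagens are triple-helical proteins of the extracellular matrix. Fibrillar collagens form the fibres of skin, bone, tendon and cartilage, whereas type IV collagens form the network of basement membranes under epithelia and around vessels. The chains are hydroxylated, folded and trimmed by dedicated enzymes, and lysyl oxidases cross-link the fibres. Pluripotent and neural epithelial cells rest on a basement membrane, and large amounts of type I, III and VI collagen are known from mesenchymal cells and fibroblasts.

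Genes of type IV collagen lie in head-to-head pairs, so their starts are shown as 300-base windows around the start, most of each upstream of it (RefSeq, GRCh38.p14), printed 5′ to 3′ on the gene's strand. Of the 43 genes, 31 had an entry in the promoter table. Capitals mark CCAAT boxes (CCAAT or its complement ATTGG) and GC boxes (GGGCGG or its complement CCGCCC), found by searching both strands. COL6A3, the gene with the largest fall at day 16, is shown beside the pairs.

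COL4A1 (chr13:110307108-110307407, minus strand): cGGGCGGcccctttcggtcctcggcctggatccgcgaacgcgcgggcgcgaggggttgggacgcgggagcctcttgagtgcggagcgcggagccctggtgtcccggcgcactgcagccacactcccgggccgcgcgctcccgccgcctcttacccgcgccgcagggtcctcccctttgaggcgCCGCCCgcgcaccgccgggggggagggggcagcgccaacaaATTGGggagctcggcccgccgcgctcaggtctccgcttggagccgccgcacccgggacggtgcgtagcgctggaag
COL4A5 (chrX:108439588-108439887, plus strand): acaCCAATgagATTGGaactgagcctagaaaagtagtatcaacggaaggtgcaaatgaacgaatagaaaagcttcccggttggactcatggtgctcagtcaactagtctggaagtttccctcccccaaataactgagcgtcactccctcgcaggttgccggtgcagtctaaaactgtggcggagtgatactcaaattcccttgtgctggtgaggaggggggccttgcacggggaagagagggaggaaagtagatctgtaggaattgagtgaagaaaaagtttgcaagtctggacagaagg
COL4A3 (chr2:227164374-227164673, plus strand): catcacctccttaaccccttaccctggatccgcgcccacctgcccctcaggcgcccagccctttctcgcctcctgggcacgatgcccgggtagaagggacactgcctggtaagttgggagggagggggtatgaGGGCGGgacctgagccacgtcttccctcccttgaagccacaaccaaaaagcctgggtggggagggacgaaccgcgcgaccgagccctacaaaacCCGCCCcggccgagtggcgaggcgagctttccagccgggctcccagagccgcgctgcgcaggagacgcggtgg
COL6A3 (chr2:237414115-237414414, minus strand): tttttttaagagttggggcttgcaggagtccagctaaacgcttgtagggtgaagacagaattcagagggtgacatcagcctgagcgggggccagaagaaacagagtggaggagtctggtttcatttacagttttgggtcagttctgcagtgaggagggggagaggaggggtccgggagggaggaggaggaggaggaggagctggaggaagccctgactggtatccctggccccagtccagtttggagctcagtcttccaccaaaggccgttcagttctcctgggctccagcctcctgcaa

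The COL4A1 and COL4A2 starts lie 127 bases apart on opposite strands, and their windows share 226 bases. The nearest COL4A5 and COL4A6 starts lie 380 bases apart, and those of COL4A3 and COL4A4 lie 419 bases apart. COL4A1 had 1 CCAAT box and 2 GC boxes, COL4A5 had 2 CCAAT boxes, COL4A3 had 2 GC boxes, and COL6A3 had neither. In all 35116 promoter windows of the table, 34.6% held a CCAAT box and 45.0% a GC box. TATAAA, the core of the TATA box, was in none of these 4 windows and in 11.5% of all windows, and the homeodomain core TAATTA was in none of them and in 4.84% of all windows. A match describes letters in a window and nothing about binding.

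Across arrays, between 34 and 43 of the 70 collagen probes were detected (48.6% to 61.4%), against 40.3% to 43.4% of all probes. Of the 43 genes, 11 were detected on no array: COL5A3 and COL24A1 (fibrillar), COL4A3 and COL4A4 (basement membrane), and COL6A5, COL6A6, COL10A1, COL19A1, COL21A1, COL25A1 and COL28A1 (other). COL11A2 was detected on 1 array and was not tested. COL15A1 was kept through the dox-minus day 16 group alone, COL20A1 through the shLuc group alone and COL14A1 through the knockdown arm alone. A difference that involves the group or arm that kept them was therefore partly set by that rule. Precision is limited by having 2 arrays a group, and single values are normalized log2 signals, which are comparable between arrays for one probe but not between probes.

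The LHX2 probe was read first as a check of the labels, and its difference passed in the knockdown arm alone. In the knockdown arm its log2 signal was 7.35 and 8.09 with shLHX2 and 9.77 and 9.73 with shLuc, lower by 2.03 ± 0.27 (SE; limma, adjusted p = 0.00592). In the dox arm it was 5.23 and 4.87 without and 6.05 and 5.45 with doxycycline at day 4, and 12.19 and 11.92 against 12.79 and 13.04 at day 16. At day 4 it was detected on 0 of 2 dox-minus and 1 of 2 dox-plus arrays, so no size is given there (adjusted p = 0.272), and the day 16 difference of 0.86 ± 0.27 did not pass (adjusted p = 0.0581). POU5F1, NANOG, LIN28A and DPPA4, markers of pluripotent cells, were detected in all 6 groups.

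**Figure D1:**
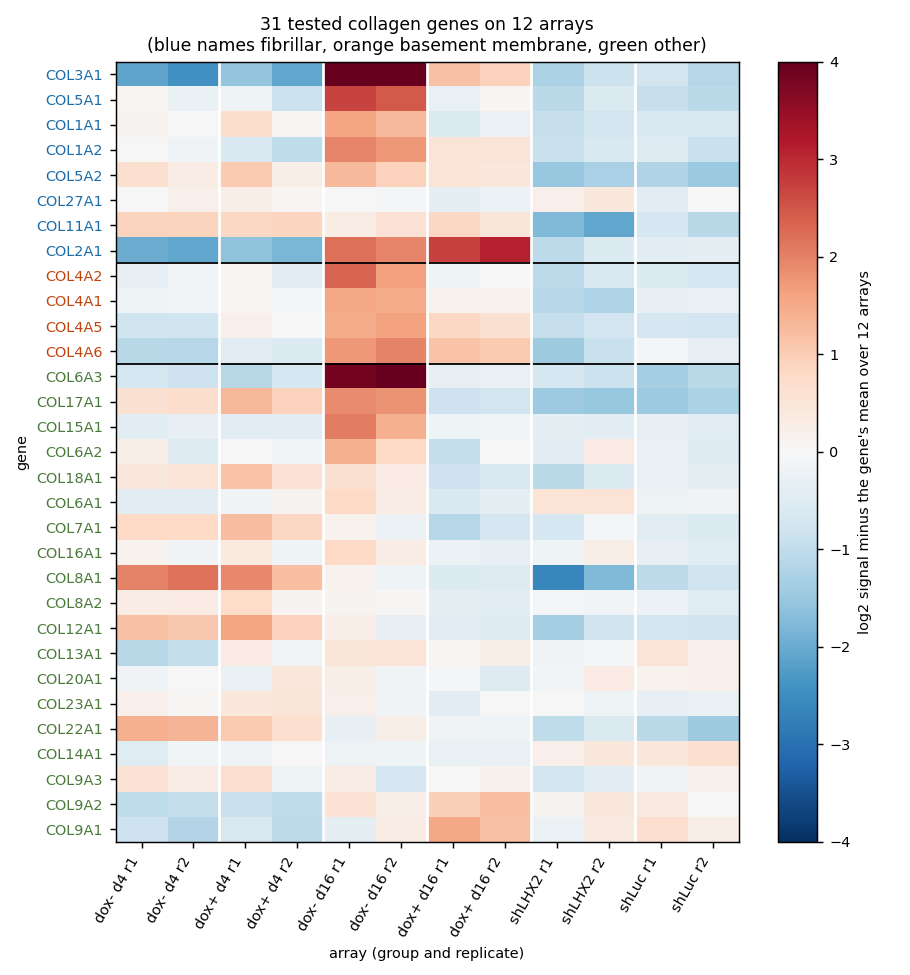
Log2 signal of each of the 31 tested collagen genes on each of the 12 arrays, as the difference from the gene's mean over the arrays (colour, limited to 4 either way). Rows are grouped by class and ordered by the day 16 difference, and the dox-minus day 16 arrays are the darkest columns for COL3A1 and COL6A3.

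Among the dox and knockdown comparisons, day 16 had the most collagen calls, and many collagen genes were lower after doxycycline (dox-plus against dox-minus). Of the 31 tested collagen genes, 2 rose and 16 fell, against 13.7% of all genes tested called in either direction, 6.08% higher and 7.64% lower. With detection required in 2 groups, which left COL15A1 and COL20A1 out, 2 of 29 rose and 14 fell. Of all 14651 genes in that run, 780 rose and 1047 fell. The median log2 difference was -0.77 over the collagens and 0.02 over all genes. All 4 type IV genes fell, 4 of 8 fibrillar genes fell and 1 rose, and 8 of 19 other genes fell and 1 rose. Each count rests on 2 arrays a group.

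COL3A1, which encodes the chain of type III collagen fibres of soft tissues, had log2 signals of 12.01 and 12.40 without and 8.33 and 8.08 with doxycycline at day 16. The groups were far apart, and the fall was 4.00 ± 0.25 (SE) on the log2 scale (adjusted p = 1.19e-06). COL5A1, a chain of type V collagen that is built into type I fibres, was 13.67 and 13.42 against 10.68 and 11.04 and fell by 2.69 ± 0.26 (adjusted p = 4.02e-05). COL1A1 and COL1A2, the chains of type I collagen, were 12.23 and 11.97 against 10.08 and 10.42, and 12.88 and 12.65 against 11.45 and 11.44. They fell by 1.85 ± 0.23 (adjusted p = 0.000302) and 1.32 ± 0.21 (adjusted p = 0.00154). The arrays of the groups did not overlap for any of these genes, which says little by itself with 2 arrays a group.

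COL2A1, the chain of cartilage fibres, moved the other way. Its log2 signal was 10.12 and 9.88 without and 10.66 and 10.99 with doxycycline, a rise of 0.83 ± 0.21 (adjusted p = 0.024), and its second probe rose by 1.11 ± 0.24 (adjusted p = 0.0087). Of the other fibrillar genes, COL5A2 (-0.62 ± 0.26, adjusted p = 0.139, 95% interval -1.18 to -0.05), COL11A1 (0.22 ± 0.21, adjusted p = 0.534, interval -0.25 to 0.68) and COL27A1 (-0.30 ± 0.20, adjusted p = 0.334) did not pass. SOX9, a transcription factor listed here as a cartilage marker, also rose at day 16, by 0.82 ± 0.21 (adjusted p = 0.0243). It was the only tested marker of the 4 on that list, as ACAN, MATN1 and COMP were not tested. Neural markers rose on the same arrays, and which cells these signals come from was not tested.

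Among the type IV chains, COL4A1 was 13.63 and 13.57 without and 12.22 and 12.22 with doxycycline and fell by 1.38 ± 0.17 (adjusted p = 0.000195). COL4A2, its partner in the head-to-head pair shown above, was 11.62 and 10.94 against 9.11 and 9.27 and fell by 2.09 ± 0.26 (adjusted p = 0.000247). COL4A5 was 12.04 and 12.15 against 11.35 and 11.14 and fell by 0.85 ± 0.18 (adjusted p = 0.00799), while its second probe did not pass (-0.81 ± 0.35, adjusted p = 0.156). COL4A6 was 11.38 and 11.63 against 10.78 and 10.67 and fell by 0.77 ± 0.21 (adjusted p = 0.0297), and its second probe fell by 1.46 ± 0.22 (adjusted p = 0.00109). The arrays of the groups did not overlap for any of the 4 genes, which says little by itself with 2 arrays a group. COL4A3 and COL4A4, the third pair, were not detected.

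COL6A3, the largest chain of the type VI beaded filaments, had the largest fall of the tested collagens. Its log2 signal was 11.14 and 11.41 without and 6.99 and 7.01 with doxycycline, lower by 4.28 ± 0.20 (adjusted p = 1.28e-07), and its second probe fell by 4.49 ± 0.22 (adjusted p = 1.4e-07). Its partner chains fell less: COL6A1 by 1.04 ± 0.20 (adjusted p = 0.00535), from 10.47 and 9.97 to 9.06 and 9.29, and COL6A2 by 1.59 ± 0.36 (adjusted p = 0.0128), from 9.48 and 8.87 to 7.11 and 8.05. The difference between the 3 falls was not tested.

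COL17A1, a transmembrane collagen of epithelial hemidesmosomes, was 10.40 and 10.30 without and 7.68 and 7.78 with doxycycline and fell by 2.62 ± 0.19 (adjusted p = 3.11e-06). COL15A1, a multiplexin of basement membrane zones, was 6.89 and 6.27 without doxycycline and not detected with it, at least 2.09-fold lower. It was kept only through the dox-minus day 16 group, which set its direction, so its call is not read as a test. COL18A1, the multiplexin whose end fragment is endostatin, was 12.25 and 11.97 against 10.82 and 11.03 and fell by 1.18 ± 0.24 (adjusted p = 0.00621), while its second probe did not pass (-1.40 ± 0.43, adjusted p = 0.0513). COL16A1 (-0.83 ± 0.24, adjusted p = 0.042) and COL7A1, the collagen of anchoring fibrils (-0.84 ± 0.25, adjusted p = 0.0466), fell as well.

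COL9A1, a chain of the type IX collagen that coats cartilage fibres, rose with COL2A1. It was 8.05 and 8.73 without and 9.997 and 9.60 with doxycycline, higher by 1.40 ± 0.29 (adjusted p = 0.00725), while its second probe did not pass (0.68 ± 0.25, adjusted p = 0.103). COL9A2 (0.66 ± 0.21, adjusted p = 0.0576) and COL9A3 (0.26 ± 0.33, adjusted p = 0.634), the other type IX chains, did not pass.

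Leaving out 1 array at a time ended 9 of the 18 calls. Between 1 and 7 of the 12 omissions ended the calls of COL2A1, COL4A5, COL4A6, COL6A1, COL6A2, COL7A1, COL9A1, COL16A1 and COL18A1, with adjusted p up to 0.328 for COL7A1. The smallest count was 10 called, without dox-plus day 16 replicate 1. The calls of COL1A1, COL1A2, COL3A1, COL4A1, COL4A2, COL5A1, COL6A3 and COL17A1 held in every omission. So did that of COL15A1, but it was kept only through the group where it is high, which set its direction, and it was not tested when detection in 2 groups was required.

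Of the 6 tested markers of mesenchyme, 4 fell with these genes at day 16, against 7.64% of all genes lower. At day 16 the summed signal of the 6 tested markers of 7 listed was 6084 to 7904 in dox-minus and 2639 to 2978 in dox-plus arrays. PDGFRA (-3.98 ± 0.23), DCN (-3.05 ± 0.24), LUM (-2.09 ± 0.37) and TWIST1 (-2.09 ± 0.20) fell, and DCN and LUM were not detected at day 4. PDGFRB and THY1 lay below 0 but did not pass. From day 4 to day 16 in dox-minus cells, 4 of the 6 rose and 2 fell, against 9.7% of all genes higher and 8.35% lower. Of the 4 tested neural markers, HES5, FABP7 and DCX rose, PAX6 lay above 0 but did not pass, and SOX1 was not tested. The summed signal of the 4 was 3404 to 3434 without and 22196 to 22808 with doxycycline. Of the 4 smooth muscle markers, ACTA2, TAGLN and CNN1 fell, while MYH11 lay above 0 (0.39) and did not pass. The summed signal of the 4 was 25762 to 26002 without and 14300 to 14584 with doxycycline. The summed mesenchyme signal was 3867 to 3965 in dox-minus and 3961 to 5496 in dox-plus cells at day 4, and PRRX1 was not tested. A sum is set mostly by its brightest probes and can go against most members. In dox-plus cells this sum fell by day 16, but the mean log2 signal of the 6 was 7.20 to 7.53 at day 4 and 7.99 to 8.02 at day 16. Over this interval 4 of the 6 rose and 2 fell, against 17.8% of all genes higher and 18.9% lower. Both tested endothelial markers fell, TEK from 8.83 and 9.27 to 7.03 and 7.09 and KDR, detected on 1 of 2 dox-plus arrays, by 1.15 ± 0.32, with a summed signal of 529 to 740 without and 172 to 183 with doxycycline, while PECAM1 and CDH5 were not tested. Of the surface ectoderm markers KRT17 fell by 2.21 ± 0.32, TP63 did not pass, and KRT5 and KRT14 were not tested, with a summed signal of 371 to 435 without and 153 to 160 with doxycycline. Of the 3 tested neural crest markers, all below 0, FOXD3 was called lower but not detected with doxycycline. TFAP2A (-1.14 ± 0.36, adjusted p = 0.0546) and SOX10 did not pass. Of the 4 tested pluripotency markers, POU5F1 fell by 1.25 ± 0.22 and NANOG by 1.62 ± 0.24, while LIN28A and DPPA4 lay above 0 and did not pass. The summed signal of the 4 was 16108 to 18455 without and 18925 to 20025 with doxycycline. Their mean log2 signal was 11.105 to 11.17 without and 10.56 to 10.72 with it. The part of these cell type markers in the collagen differences was not tested.

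**Figure D2:**
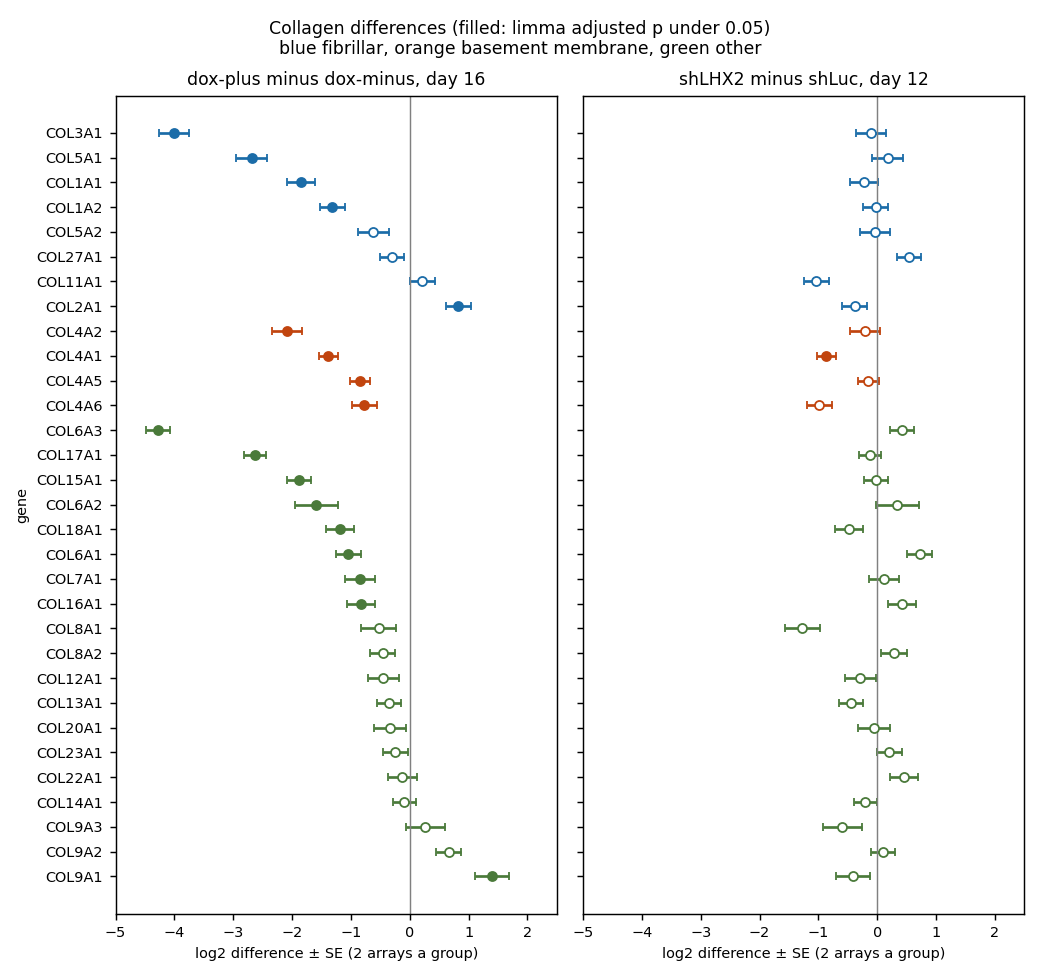
Log2 difference of each tested collagen gene, with its standard error, for dox-plus minus dox-minus at day 16 (left) and shLHX2 minus shLuc at day 12 (right), from 2 arrays a group. Filled points passed an adjusted p of 0.05, which are 18 on the left and 1 on the right; COL15A1 was detected in dox-minus day 16 cells alone.

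At day 4 the dox groups differed little. Of the 31 tested collagens, 2 rose and 0 fell in dox-plus cells, against 1.93% of all genes called in either direction, 1.34% higher and 0.594% lower. At an adjusted p under 0.01, 0 collagens passed, against 0.326% of all genes. At an unadjusted limma p under 0.05, 6 of 31 did, against 2179 of all 15650 genes. COL13A1, a transmembrane collagen of cell junctions, was 6.18 and 6.35 without and 7.62 and 7.20 with doxycycline, a rise of 1.15 ± 0.20 (adjusted p = 0.016), while its second probe did not pass (0.43 ± 0.24, adjusted p = 0.481). COL4A5 was 9.74 and 9.74 against 10.75 and 10.54 and rose by 0.91 ± 0.18 (adjusted p = 0.0273), while its second probe did not pass (0.91 ± 0.35, adjusted p = 0.278). Leaving out dox-minus day 4 replicate 2 ended both calls (adjusted p = 0.141 and 0.177). Among the fibrillar genes the largest difference was that of COL1A2 (-0.74 ± 0.21, adjusted p = 0.113), whose second probe, tested alone, fell by 0.91 ± 0.19 (adjusted p = 0.0408).

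At day 4 the remaining chains followed throughout did not pass either. COL1A1 differed by 0.33 ± 0.23, COL2A1 by 0.31 ± 0.21, COL5A1 by -0.43 ± 0.26, COL4A1 by 0.14 ± 0.17, COL4A2 by 0.03 ± 0.26, COL6A3 by -0.16 ± 0.20, COL9A1 by 0.17 ± 0.29, COL11A1 by -0.04 ± 0.21 and COL18A1 by 0.38 ± 0.24, all with adjusted p of at least 0.516. COL3A1 was not detected in either day 4 group.

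The dox effect itself changed between the days for 13 of the 31 genes, all lower at day 16, against 7.85% of all genes in either direction, 3.17% higher and 4.68% lower. With detection required in 2 groups, which left COL15A1 and COL20A1 out, it changed for 12 of 29, all lower. Of all 14651 genes in that run, 386 were higher and 613 lower. The change was -4.12 ± 0.29 for COL6A3 (adjusted p = 6.27e-06) and -3.09 ± 0.27 for COL17A1 (adjusted p = 2.45e-05), and all 4 type IV genes were among the 13. For COL3A1 and COL15A1, also counted, the size is not known, because neither was detected at day 4 and COL15A1 was detected in the dox-minus day 16 group alone. The other 11 were detected on every array of the 4 groups. The second probes of COL4A5, COL13A1 and COL18A1, tested alone, did not pass. This comparison uses the same arrays as both dox comparisons.

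**Figure D3:**
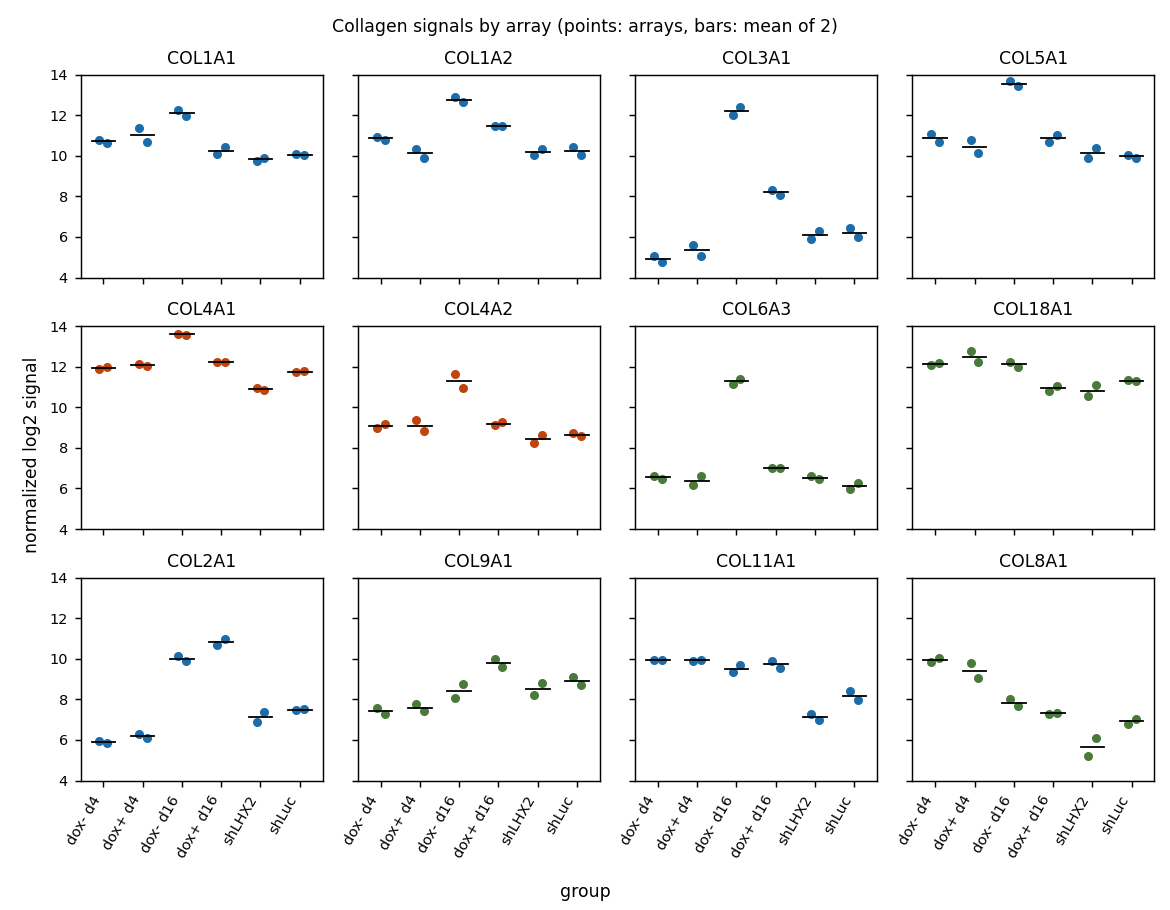
Normalized log2 signal of 12 collagen genes on each array (points) with the mean of the 2 arrays (bar), by group. COL3A1 and COL6A3 stand highest in the dox-minus day 16 arrays, and COL2A1 and COL9A1 in the dox-plus day 16 arrays.

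From day 4 to day 16, collagen genes of every class rose in dox-minus cells. Of the 31 tested genes, 17 rose and 4 fell, against 18% of all genes called in either direction, 9.7% higher and 8.35% lower. The median was 0.97 for the collagens and -0.04 for all genes. With detection required in 2 groups, which left COL15A1 and COL20A1 out, 16 of 29 rose and 4 fell. Of all 14651 genes in that run, 1345 rose and 1258 fell. COL3A1 was not detected at day 4 and reached 12.01 and 12.40, at least 92.5-fold higher (adjusted p = 1.03e-08). COL6A3 went from 6.62 and 6.48 to 11.14 and 11.41 (4.73 ± 0.20, adjusted p = 2.47e-08) and COL2A1 from 5.93 and 5.84 to 10.12 and 9.88 (4.12 ± 0.21, adjusted p = 1.13e-07). No day 4 array reached any day 16 array for these genes, which says little by itself with 2 arrays a group.

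The type IV genes rose with them, COL4A6 by 2.99 ± 0.21, COL4A5 by 2.35 ± 0.18, COL4A2 by 2.21 ± 0.26 and COL4A1 by 1.67 ± 0.17. COL5A1 rose by 2.67 ± 0.26, COL1A2 by 1.91 ± 0.21, COL1A1 by 1.39 ± 0.23, COL13A1 by 1.54 ± 0.20, COL9A2 by 1.40 ± 0.21, COL6A2 by 1.25 ± 0.36, COL17A1 by 1.18 ± 0.19, COL6A1 by 0.97 ± 0.20 and COL9A1 by 0.97 ± 0.29, and COL15A1 was at least 1.87-fold higher. COL8A1, a short-chain collagen of vessel walls and the eye, fell by 2.11 ± 0.30 (adjusted p = 0.000387), COL22A1 by 1.43 ± 0.24, COL12A1 by 1.16 ± 0.27 and COL7A1 by 0.85 ± 0.25. COL11A1 (-0.44 ± 0.21, adjusted p = 0.191) and COL18A1 (a difference of 0.00 ± 0.24, adjusted p = 0.996) did not pass. The second probe of COL9A1, tested alone, did not pass (0.58 ± 0.25, adjusted p = 0.151). Single omitted arrays ended the calls of COL6A1, COL6A2, COL7A1, COL9A1 and COL12A1, with adjusted p up to 0.252 for COL6A2.

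In dox-plus cells the same interval gave 8 rises and 9 falls among the 31, against 36.6% of all genes in either direction, 17.8% higher and 18.9% lower. COL2A1 rose by 4.63 ± 0.21, COL9A1 by 2.20 ± 0.29, COL9A2 by 2.02 ± 0.21, COL4A6 by 1.60 ± 0.21, COL1A2 by 1.33 ± 0.21, COL6A3 by 0.61 ± 0.20 (adjusted p = 0.0342) and COL4A5 by 0.60 ± 0.18 (adjusted p = 0.0204). COL3A1 was at least 5.93-fold higher. COL8A1 fell by 2.10 ± 0.30, COL7A1 by 1.94 ± 0.25, COL17A1 by 1.91 ± 0.19, COL12A1 by 1.73 ± 0.27, COL18A1 by 1.57 ± 0.24, COL22A1 by 1.03 ± 0.24, COL8A2 by 0.82 ± 0.21, COL1A1 by 0.79 ± 0.23 and COL23A1 by 0.67 ± 0.21. COL4A1 (0.14 ± 0.17), COL4A2 (0.09 ± 0.26), COL5A1 (0.41 ± 0.26) and COL11A1 (-0.18 ± 0.21) did not pass. Single omitted arrays ended the calls of COL1A1, COL4A5, COL6A3, COL8A2, COL22A1 and COL23A1. The time comparisons share arrays with the dox comparisons, so their values are given side by side and no overlap between them is read.

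**Figure D4:**
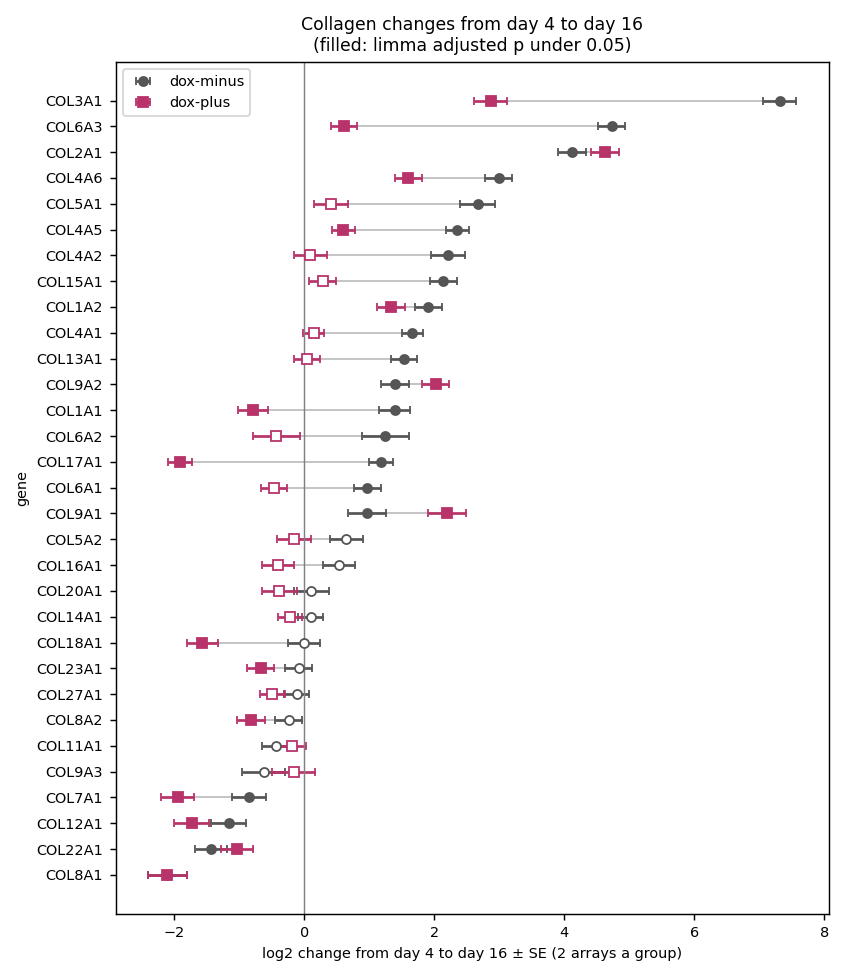
Log2 change from day 4 to day 16 with its standard error for each tested collagen gene, in dox-minus (grey circles) and dox-plus cells (pink squares). Filled symbols passed an adjusted p of 0.05, and COL6A3 rose by 4.73 in dox-minus cells. COL3A1 and COL15A1 were not detected at day 4 (nor COL15A1 in dox-plus cells at day 16, nor COL14A1 in any of these groups), so their points are set by background signal. COL20A1 was detected on 0 of 2 dox-minus day 4 arrays and on 1 of 2 arrays in each other group drawn.

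In the knockdown arm 1 of 31 tested collagens fell and 0 rose, against 0.543% of all genes called in either direction, 0.249% higher and 0.294% lower. At an adjusted p under 0.01, 0 collagens passed, against 0.198% of all genes. At an unadjusted limma p under 0.05, 7 of 31 did, against 1597 of all 15650 genes. COL4A1 was 10.93 and 10.85 with shLHX2 and 11.74 and 11.78 with shLuc, lower by 0.87 ± 0.17 (adjusted p = 0.0432). Omitting any of 8 arrays ended this call, with an adjusted p up to 0.333 without shLuc replicate 2. COL11A1 was 7.30 and 6.998 against 8.39 and 7.98 (-1.04 ± 0.21, adjusted p = 0.0591), COL4A6 was 8.21 and 8.73 against 9.59 and 9.32 (-0.99 ± 0.21, adjusted p = 0.065) and COL8A1 was 5.23 and 6.08 against 6.80 and 7.05 (-1.27 ± 0.30, adjusted p = 0.0998, with 1 of 2 shLHX2 arrays detecting it). These groups did not overlap, which says little by itself with 2 arrays a group, and the adjusted tests missed the threshold.

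COL6A1 was 10.21 and 10.21 against 9.47 and 9.52 (0.72 ± 0.20, adjusted p = 0.193). COL1A1 (-0.23 ± 0.23), COL1A2 (-0.03 ± 0.21), COL3A1 (-0.11 ± 0.25), COL5A1 (0.18 ± 0.26), COL2A1 (-0.38 ± 0.21), COL4A2 (-0.21 ± 0.26), COL6A3 (0.42 ± 0.20), COL9A1 (-0.42 ± 0.29) and COL18A1 (-0.48 ± 0.24) had adjusted p of at least 0.522. Of the 6 tested mesenchyme markers, 2 lay above and 4 below 0 in shLHX2 cells, with a median of -0.27. Only DCN passed, rising by 1.67 ± 0.24 (adjusted p = 0.00824), against 0.249% of all genes higher. The summed signal of the 6 was 2389 to 2471 with shLHX2 and 2691 to 2803 with shLuc. Their mean log2 signal was 7.74 to 7.82 with shLHX2 and 7.64 to 7.66 with shLuc. TEK, an endothelial marker, was 6.30 and 6.33 against 8.37 and 8.50 and fell by 2.12 ± 0.19 (adjusted p = 0.000583). The neural marker PAX6 fell by 1.57 ± 0.22 (adjusted p = 0.0079), and of the 4 tested neural markers 1 lay above and 3 below 0. Among all genes, 0.294% were called lower. The summed endothelial signal was 119 to 143 with shLHX2 and 392 to 422 with shLuc, and the summed neural signal 396 to 483 and 706 to 741. The part of these markers in the collagen values, that of COL4A1 included, was not tested.

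The day 16 dox and the knockdown comparisons share no array, and their values can be set side by side. Of the 16 collagens that fell with doxycycline at day 16, 6 lay above and 10 below 0 in the knockdown. Their median was -0.07 and their range -0.99 to 0.72. Of all 15650 genes, 7939 lay above and 7711 below 0. COL15A1, counted below 0, was not detected in either knockdown group, so its sign is set by background signal. The 2 collagens that rose at day 16 lay below 0 in the knockdown, at -0.42 for COL9A1 and -0.38 for COL2A1.

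The genes that build collagen were read from a list of 34 modifying, processing and cross-linking enzymes and carriers, of which 28 were tested. At day 16, 10 of 28 fell and 0 rose in dox-plus cells, against 7.64% of all genes lower and 6.08% higher, with a median log2 difference of -0.54. LOX, the lysyl oxidase that cross-links collagen and elastin, was 9.76 and 9.32 without and 5.16 and 5.82 with doxycycline and fell by 4.05 ± 0.29 (adjusted p = 3.29e-06), a size that is uncertain because only 1 of its 2 dox-plus arrays detected it. P4HA2, a subunit of prolyl hydroxylase, fell by 2.04 ± 0.31 (adjusted p = 0.000986), BMP1, a procollagen protease, by 1.70 ± 0.27 (adjusted p = 0.00132) and SPARC, a collagen-binding matrix protein, by 1.47 ± 0.22 (adjusted p = 0.00104). At day 4 only FKBP14 of the 28 passed, rising by 1.31 ± 0.26 (adjusted p = 0.0278), against 1.34% of all genes higher. In the knockdown 0 of 28 passed in limma, with 6 at an unadjusted p under 0.05, against 1597 of all 15650 genes.

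From day 4 to day 16, 13 of 28 rose and 0 fell in dox-minus cells, against 9.7% of all genes higher and 8.35% lower, led by LOXL1 (1.99 ± 0.29), BMP1 (1.92 ± 0.27), SPARC (1.45 ± 0.22) and P4HA2 (1.27 ± 0.31). In dox-plus cells 2 rose and 6 fell, against 17.8% of all genes higher and 18.9% lower, led by LOX (-2.15 ± 0.29, detected on 1 of 2 arrays at day 16), COLGALT2 (1.67 ± 0.20), PCOLCE (-1.49 ± 0.26) and PPIB (-1.24 ± 0.24). Of 10 listed collagen receptors 7 were tested, and 4 fell at day 16, against 7.64% of all genes lower: DDR2, a collagen-activated kinase detected on 1 of 2 dox-plus arrays, by 1.48 ± 0.24, ITGA2 by 1.25 ± 0.22 and MRC2 by 0.97 ± 0.22, while ITGA11, an integrin chain for fibrillar collagen, was not detected with doxycycline and at least 4.22-fold lower. No receptor passed at day 4 or in the knockdown. There 0 and 2 of the 7 had an unadjusted p under 0.05 in limma, against 2179 and 1597 of all 15650 genes. From day 4 to day 16, ITGA11 (1.81 ± 0.30) and MRC2 (1.54 ± 0.22) rose in dox-minus cells. In dox-plus cells DDR1 rose by 0.93 ± 0.18 and DDR2 fell by 1.27 ± 0.24, MRC2 was at least 1.54-fold higher and ITGA11 at least 1.41-fold lower.

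**Figure D5:**
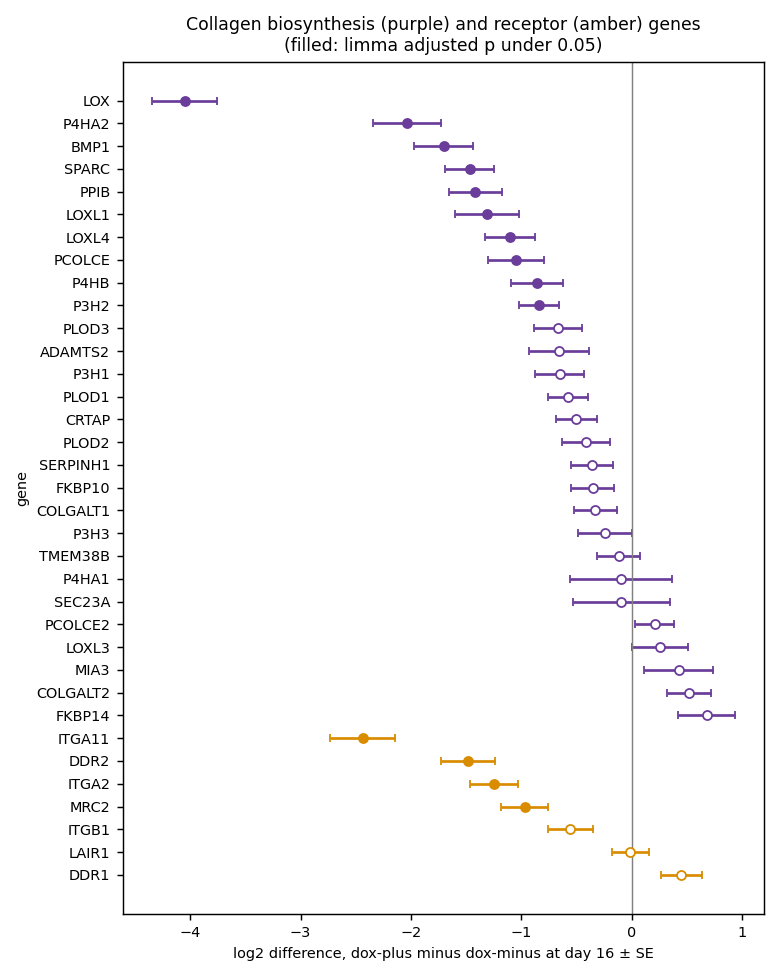
Log2 difference (dox-plus minus dox-minus at day 16, with its standard error) of the tested collagen biosynthesis genes (purple) and collagen receptors (amber). Filled points passed an adjusted p of 0.05, and LOX is drawn at -4.05, although only 1 of its 2 dox-plus arrays detected it. ITGA11 and ADAMTS2 were not detected in dox-plus cells and MIA3 was not in dox-minus cells, so their points are set partly by background signal.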

How the data were processed

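Total RNA of 12 H9 samples was read on Illumina bead arrays, biotinylated per the labels' protocols. The deposited files give the mean bead intensity and a detection p-value per probe, per the file headers; scanner software and background subtraction are not given in the sources used here. Groups came from the sample labels. Collagen members and all lists were chosen with earlier results of these data known. Named genes were every collagen called in a comparison, 11 chains in all comparisons, the largest uncalled change of a class without a call, and up to 4 called genes of each list.

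Signals were corrected and quantile normalized with neqc (offset 16, log2 scale) in limma 3.58.1, R 4.3.3. Probes detected at p under 0.01 on both arrays of a group were kept (21526), a gene was its brightest kept probe (15650 genes), and 1 fit held all 12 arrays, adjusted by Benjamini-Hochberg. Where a group was not detected, "at least" sets the other group against the lowest detected signal. The fit was tested on simulated data. Alternatives were background, offset, scaling (also the deposited series table, unscaled), filter, probe rule, threshold, array weights, replicate block and omitted arrays.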

Additional observations from a re-analysis of the deposited data

Results flagged for a closer look

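The dox effect differed between day 16 and day 4 by a test of the difference itself for 13 collagens. The log2 difference was -2.18 for COL1A1, -4.44 for COL3A1 and -2.25 for COL5A1 among the fibrillar genes; COL3A1 was not detected at day 4, so its value is no measured size. It was -1.52 for COL4A1, -2.11 for COL4A2, -1.75 for COL4A5 and -1.39 for COL4A6 in the basement membrane class. It was -1.44 for COL6A1, -4.12 for COL6A3, -1.50 for COL13A1, -3.09 for COL17A1, -1.85 for COL15A1 and -1.57 for COL18A1 among the others. COL15A1 was detected in 1 of the 4 groups, dox-minus day 16, through which alone it was kept, so its value is no measured size either. Tested alone, the second probes of COL4A5 (-1.71, adjusted p = 0.0604), COL13A1 (-0.76, adjusted p = 0.214) and COL18A1 (-0.94, adjusted p = 0.392) did not pass. The mean of probes also ended the call of COL18A1. Omitting single arrays ended the calls of COL4A6, COL6A1 and COL18A1, with adjusted p of up to 0.071. What these differences stem from was not tested.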

How the results depend on the processing

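No called collagen changed direction under any alternative run. Omitting 1 array at a time gave 10 to 18 called collagens at day 16, 0 to 2 at day 4, 0 to 2 in the knockdown, 17 to 21 and 12 to 17 for time without and with doxycycline, and 11 to 17 for the change of the dox effect. At day 4, where 2 were called, an adjusted p under 0.01 gave 0, array weights 1 and the mean of probes 1, COL1A2, in place of COL13A1 and COL4A5. In the knockdown, where 1 was called, an adjusted p under 0.01 gave 0, array weights 5, each probe tested alone 0 and median scaling 3. The cause was not tested. Apart from the replicate blocks given below, the other settings kept each count within 1.5 times. Single day 16 calls still depended on settings other than omitted arrays. Such settings ended the call of COL7A1 in 9 cases, COL16A1 in 6, COL4A6 in 3, COL2A1 in 2 and COL6A2 in 1. Scaling moved the median of all genes at day 4 by 0.15 with median scaling and 0.22 with the deposited series table put on the log2 scale without scaling, and in the knockdown by -0.13 and -0.17. Among the called genes of the whole array, the share that rose went from 69.2% to 87.1% and 93.8% at day 4 and from 45.9% to 28.6% and 16.4% in the knockdown. For the dox-plus time change it went from 48.5% to 38.9% and 32.2%, for the dox-minus one from 53.8% to 62.0% and 70.4%, and for the change of the dox effect from 40.4% to 28.3% and 17.4%.

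Replicate numbers were not used as pairs, because the differences between same-numbered replicates correlated across genes at 0.33 at day 4, -0.58 at day 16 and 0.07 in the knockdown. With a replicate block 0 collagens were called at day 4, 0 in the knockdown and 14 at day 16. With the numbers of the dox-plus day 16 arrays crossed, a setting chosen after these correlations were seen, 20 were called at day 16, 2 at day 4 and 4 in the knockdown. With 2 arrays a group, an omitted array leaves a lone array assumed to vary like the other groups.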
